A study of Mus musculus with 39 samples.

Results

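The mitochondrial genome of the mouse encodes 13 messenger RNAs, 22 transfer RNAs and 2 ribosomal RNAs, and the 13 mRNAs and 22 tRNAs were examined in brain RNA of mice given the nerve agent soman. The 35 genes were chosen by symbol from the 47561 genes of the deposited table: ND1, ND2, ND3, ND4, ND4L, ND5, ND6, COX1, COX2, COX3, ATP6, ATP8, CYTB, and each Trn symbol followed by a capital letter and at most 1 digit. The set was proposed because mitochondrial genes were known to take an unusually large share of 2 libraries, both of mice given 1/10 LD50 and sampled at day 7. Differences that involve that group are therefore given as a description, with no test. Its libraries still entered the model of all groups, and so the estimate of spread behind the other tests.

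Soman, an organophosphate that blocks acetylcholinesterase, was injected under the skin at a fraction of the LD50 (the dose lethal to 50% of animals), which was 1/10 in the lowest dose, 1/5 in the middle dose and 1/2 in the highest, and brains were taken on day 1, 3, 7 or 14. With 1 saline group this gave 13 groups of 3 libraries, which the design text calls biological replicates, and 39 libraries in all. Strain, sex and age, the day on which saline brains were taken, the number of injections and the number of animals per library are not given in the labels. A difference from saline can thus hold a difference between collection days, and in whole brain fewer cells of a type and less RNA per cell cannot be told apart. The library RNA was selected on poly(dT) beads. Levels are in FPKM, a fragment count scaled by transcript length and library size. The scaling is meant to let different genes be compared per length. It is uncertain for genes shorter than usual fragments, such as the tRNAs at 59 to 75 bases, so their levels cannot be set firmly against those of the mRNAs. Each library's FPKM summed to between 296322 and 342231, and the depth behind them is unknown. In 7 libraries more genes lay midway between the other 2 of their group than in any library of another group. On day 1 they were the replicates 3 of the 3 doses, on day 7 replicate 2 of the 1/10 LD50 group, on day 14 the replicates 3 of the 1/10 and 1/5 LD50 groups, and among the controls saline replicate 3. Counts of genes past the threshold were repeated without them. Every marker of the neurons, astrocytes, oligodendrocytes, microglia and endothelium expected in brain was above 0 in each group.

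The mitochondrial genome is a small circle transcribed from both strands into long precursors. The tRNAs lie between most of the other genes, and cutting them out at both ends frees the mRNAs, the arrangement known as tRNA punctuation. Most of the mRNAs then gain short poly(A) tails, for which ND6 is known as an exception from human cells, while mature tRNAs gain the letters CCA at the 3′ end and carry no poly(A) tail. The mRNAs encode core subunits of the respiratory chain: 7 of complex I (NADH dehydrogenase), 1 of complex III (cytochrome b), 3 of complex IV (cytochrome c oxidase) and 2 of complex V (ATP synthase). The tRNAs translate these 13 mRNAs on the mitochondrial ribosome. Neurons depend on oxidative phosphorylation for most of their ATP, and brain is among the tissues richest in these transcripts.

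All 35 genes matched the GENCODE M21 annotation of GRCm38, from which gene order, strand and length were taken. The build named for the alignment is a human one, so no coordinates are given. ND6 and 8 of the 22 tRNAs lie on the minus strand and the others on the plus strand. The 3 minus-strand tRNAs of highest level, and the plus-strand tRNA closest to them, are shown 5′ to 3′ as DNA letters from GENCODE transcripts, with the anticodon in capitals.

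TrnS1 (serine, minus strand): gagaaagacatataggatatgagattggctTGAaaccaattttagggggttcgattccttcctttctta

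TrnE (glutamate, minus strand): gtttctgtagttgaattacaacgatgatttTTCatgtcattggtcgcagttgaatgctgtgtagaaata

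TrnY (tyrosine, minus strand): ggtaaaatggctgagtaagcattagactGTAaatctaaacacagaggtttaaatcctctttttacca

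TrnM (methionine, plus strand): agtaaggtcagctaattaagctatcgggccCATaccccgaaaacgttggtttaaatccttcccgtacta

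The 3 tRNAs of lowest level are all on the plus strand. TrnF and TrnV, which lie on either side of the small ribosomal RNA gene mt-Rnr1, are also the 2 tRNAs that rose on both day 7 and day 14 against day 1 under every setting tried, as described further on.

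TrnF (phenylalanine, plus strand): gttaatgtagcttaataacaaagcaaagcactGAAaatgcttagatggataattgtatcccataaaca

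TrnV (valine, plus strand): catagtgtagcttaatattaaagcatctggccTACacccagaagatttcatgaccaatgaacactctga

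TrnG (glycine, plus strand): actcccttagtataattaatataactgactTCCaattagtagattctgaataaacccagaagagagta

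Some mRNAs share bases, which limits how their levels can be separated. The last 60 bases of ND5 and of ND6, which run towards each other on opposite strands, overlap in the 14 bases in capitals, and the 3′ end of ATP8 shares the 43 bases in capitals with ATP6 on the same strand.

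ND5 (3′ end, plus strand): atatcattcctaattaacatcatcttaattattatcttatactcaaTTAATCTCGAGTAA

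ND6 (3′ end, minus strand): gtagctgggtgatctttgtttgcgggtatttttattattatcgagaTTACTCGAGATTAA

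ATP8 (3′ end, plus strand): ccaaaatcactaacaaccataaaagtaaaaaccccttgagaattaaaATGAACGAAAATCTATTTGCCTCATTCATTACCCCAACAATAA

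None of the sources used here says whether the libraries kept strand. Without strand, reads of a minus-strand tRNA or of ND6 cannot be told apart from reads of a plus-strand precursor that runs through the same place, and the levels of these 9 genes are uncertain for that reason. Mature tRNAs carry no tail for the poly(dT) beads and are shorter than usual fragments, so the tRNA values may describe tRNA sequence inside longer RNAs as well as free tRNA.

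All 35 genes were above 0 in all 39 libraries, and all passed the filter used for the tests, which asks for 1 FPKM in 3 or more libraries. COX1, the catalytic subunit of complex IV, had the highest level of the 35, with a median of 6687 FPKM over the 39 libraries (lowest 4544, highest 15541), and was above ATP6 in 39 of 39. ATP6, the proton channel subunit of ATP synthase, had a median of 2841 FPKM. CYTB, the cytochrome b of complex III, followed at 2738 FPKM, ND1 at 2690 FPKM and COX2 at 2678 FPKM. These 4 were close, with ATP6 above CYTB in 24 of 39 libraries, CYTB above ND1 in 18 and ND1 above COX2 in 31. COX3 had a median of 2410 FPKM, ATP8 of 1842, ND4 of 1763 and ND2 of 1503 FPKM. ND2 stood above ND5 (983 FPKM) in 39 of 39 libraries. The lowest mRNAs were ND4L at 908 FPKM, ND6 at 610 FPKM (354 to 2407) and ND3 at 395 FPKM (227 to 720).

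**Figure D1:**
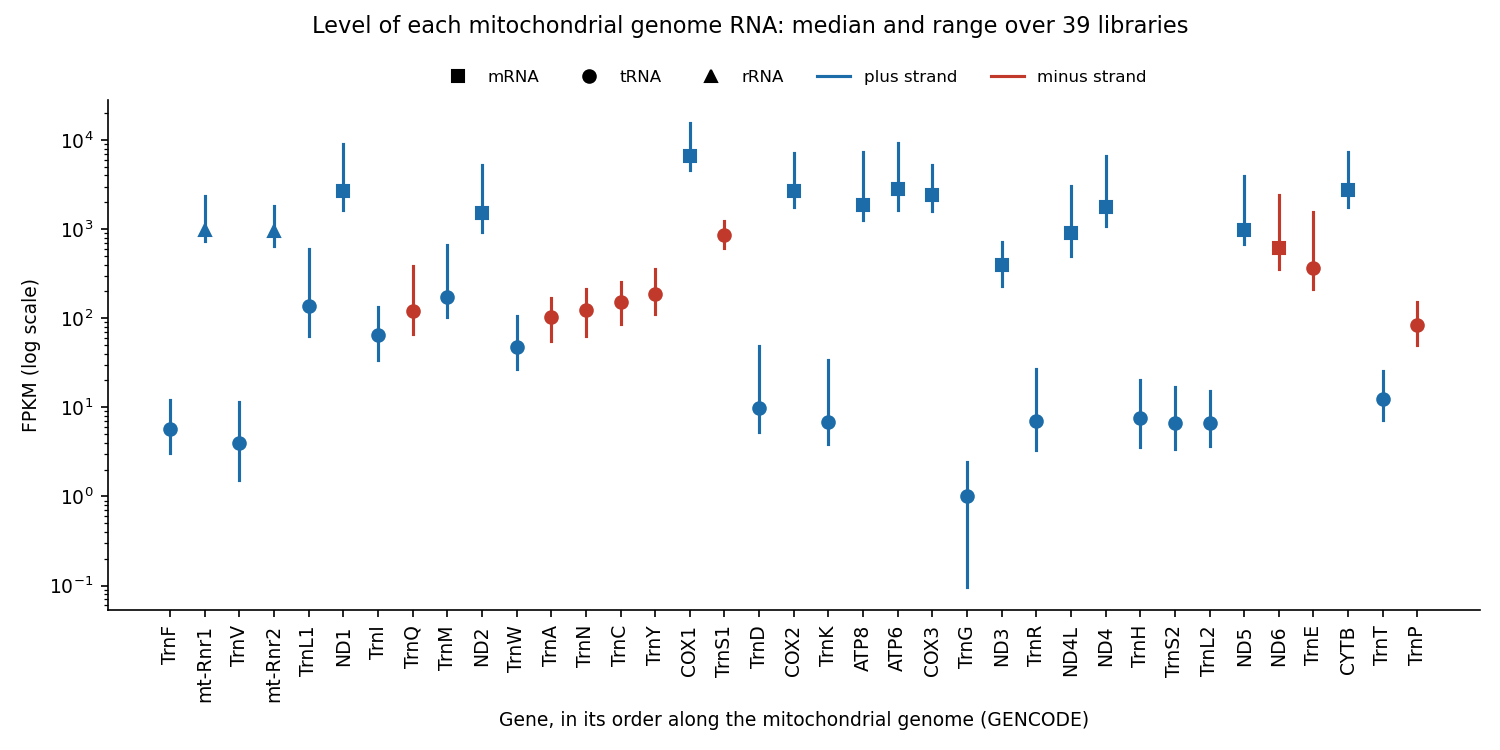
FPKM on a log scale (y) of each mitochondrial genome RNA, in gene order (x), as the median (symbol) and range (line) over 39 libraries, with squares for mRNAs, circles for tRNAs, triangles for the 2 rRNAs, blue for the plus and red for the minus strand. The 8 minus-strand tRNAs all have medians of 83.3 FPKM or more, while 10 of the 14 plus-strand tRNAs are below 15 FPKM.

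Levels of the tRNAs spanned a wider range than those of the mRNAs and differed by strand. TrnS1, the serine tRNA that follows COX1 on the genome and lies opposite in direction, was highest with a median of 847 FPKM (609 to 1225). TrnE, the glutamate tRNA between ND6 and CYTB, came next at 361 FPKM (212 to 1570). The medians of the 8 minus-strand tRNAs lay between 83.3 and 847 FPKM. Those of the 14 plus-strand tRNAs lay between 1.02 and 174 FPKM, and only TrnM, TrnL1 and TrnI reached 50 FPKM. The lowest were TrnF at 5.73 FPKM, TrnV at 3.95 FPKM and TrnG at 1.02 FPKM, and TrnG reached 1 FPKM in 21 of 39 libraries. A change of a gene this low is understated on the log2(FPKM + 1) scale used for the tests.

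The 13 mRNAs together took 18.7% ± 7.28 of the library FPKM at 1/10 LD50 on day 7, 8.93% ± 1.66 over the other 33 soman libraries and 7.94% ± 2.19 in saline (SD, n = 3, 33 and 3). The high value came from replicates 2 and 3 of 1/10 LD50 on day 7, at 20.8% and 24.7%, while replicate 1 was at 10.6%. In saline the 3 libraries were at 10.4%, 6.12% and 7.34%. Replicate 1 of 1/10 LD50 on day 7 was thus close to the highest saline library. For the 22 tRNAs the shares were 0.915%, 1.41% and 1.69% in that soman group, and 0.882%, 0.570% and 0.788% in saline. The third-highest library by the share of all 35 genes was replicate 2 of 1/10 LD50 on day 14 at 14.5%, and the lowest of the 39 was saline replicate 2 at 6.69%. By group mean, the mRNA share was lowest at 1/5 LD50 on day 14, with 7.00% ± 0.218 (SD, n = 3).

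**Figure D2:**
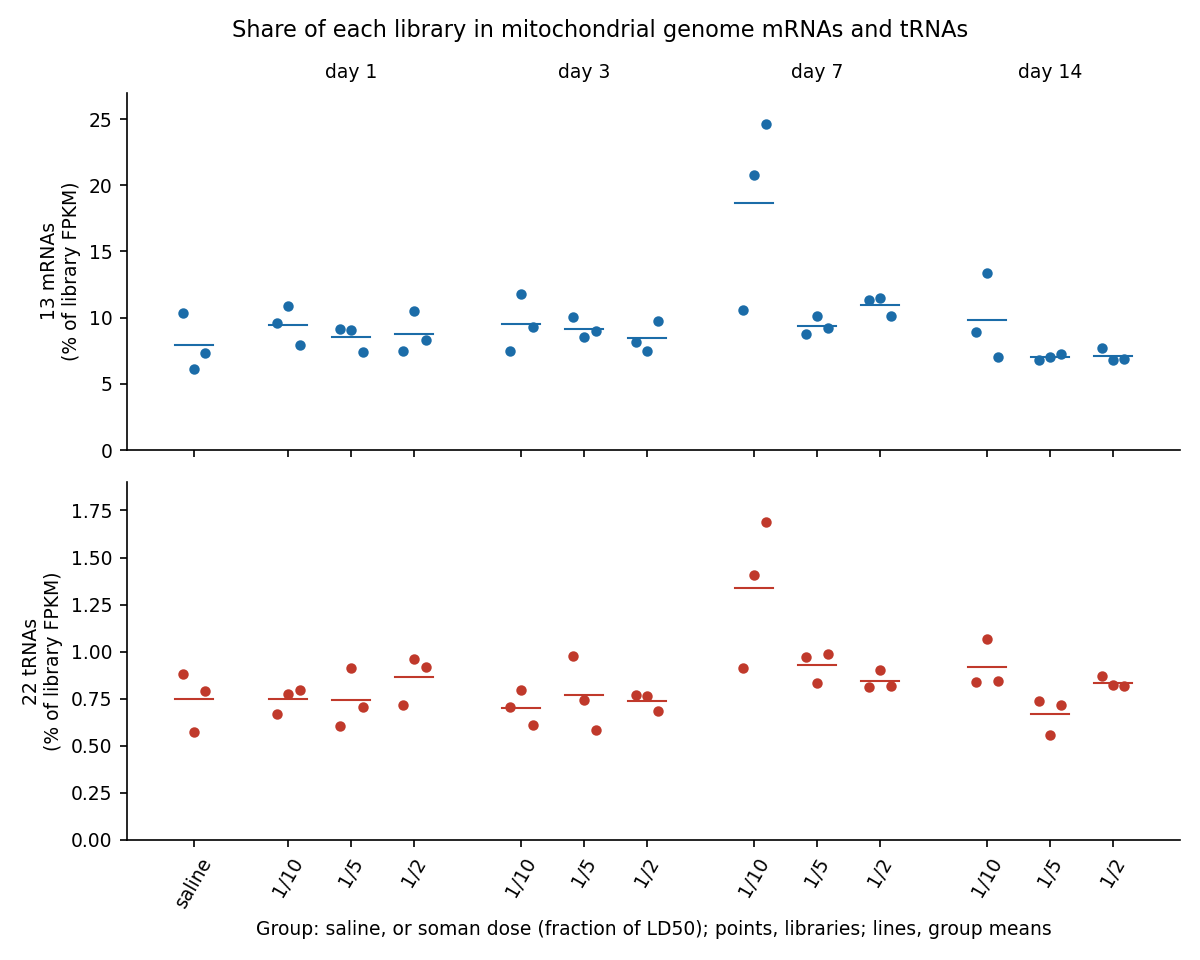
Percent of each library's FPKM (y) in the 13 mRNAs (upper panel) and the 22 tRNAs (lower panel), by group (x: saline, then soman dose as a fraction of the LD50 within each day), with a point per library and a line at the group mean. Replicates 2 and 3 of 1/10 LD50 on day 7 stand above all other libraries at 20.8% and 24.7% for the mRNAs, and the 3 saline libraries span 6.12% to 10.4%.

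The genes are given library by library, replicates 1, 2 and 3 in turn, for that highest group, for 1/5 LD50 on day 14 as the lowest and for saline. Among the complex IV subunits, COX1 stood at 7939, 15022 and 15541 FPKM at 1/10 LD50 on day 7, at 5578, 5322 and 5707 FPKM at 1/5 LD50 on day 14, and at 7764, 4544 and 5598 FPKM in saline. COX2, which takes electrons from cytochrome c, had 3225, 6261 and 7073 FPKM at 1/10 LD50 on day 7, 1834, 1917 and 1746 FPKM at 1/5 LD50 on day 14, and 3032, 1767 and 2058 FPKM in saline. COX3, the third core subunit, was at 2967, 5202 and 5135 FPKM at 1/10 LD50 on day 7, 1874, 1838 and 1999 FPKM at 1/5 LD50 on day 14, and 2870, 1589 and 1881 FPKM in saline. For all 3, replicate 1 of the 1/10 LD50 group was just above saline replicate 1, and replicates 2 and 3 were far above every saline library. The 1/5 LD50 libraries of day 14 lay close together, mostly inside the saline range.

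CYTB, the only complex III gene on this genome, stood at 3222, 6905 and 7408 FPKM at 1/10 LD50 on day 7, 1975, 2224 and 2378 FPKM at 1/5 LD50 on day 14, and 3148, 1805 and 2095 FPKM in saline. Of the ATP synthase subunits, ATP6 had 3554, 7807 and 9336 FPKM at 1/10 LD50 on day 7, 1995, 2225 and 2457 FPKM at 1/5 LD50 on day 14, and 3229, 1643 and 2087 FPKM in saline. ATP8, a small subunit of its membrane part, had 2444, 6156 and 7302 FPKM at 1/10 LD50 on day 7, 1411, 1769 and 1453 FPKM at 1/5 LD50 on day 14, and 2212, 1281 and 1475 FPKM in saline. The same 2 libraries were the highest of the 39 for each of these 3 genes.

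Of the complex I subunits, ND1, which lies where the membrane arm meets the arm that takes up electrons, stood at 3322, 7155 and 9072 FPKM at 1/10 LD50 on day 7, 2005, 1843 and 1978 FPKM at 1/5 LD50 on day 14, and 3274, 1638 and 2070 FPKM in saline. ND2, one of the proton-pumping subunits of the membrane arm, had 1958, 3729 and 5238 FPKM at 1/10 LD50 on day 7, 1096, 1157 and 1062 FPKM at 1/5 LD50 on day 14, and 1920, 936 and 1191 FPKM in saline. ND4, another pumping subunit, had 2284, 5159 and 6521 FPKM at 1/10 LD50 on day 7, 1272, 1404 and 1456 FPKM at 1/5 LD50 on day 14, and 2138, 1076 and 1388 FPKM in saline. In each of these 3 genes replicate 3 of 1/10 LD50 on day 7 was the highest of the libraries given and replicate 2 came next. ND5, the third pumping subunit, had 1270, 3052 and 3961 FPKM at 1/10 LD50 on day 7, 795, 791 and 793 FPKM at 1/5 LD50 on day 14, and 1307, 680 and 807 FPKM in saline. ND4L, a small membrane subunit encoded just before ND4, had 1072, 2586 and 3022 FPKM at 1/10 LD50 on day 7, 637, 641 and 613 FPKM at 1/5 LD50 on day 14, and 1049, 502 and 696 FPKM in saline. ND3, another small subunit, had 489, 720 and 544 FPKM at 1/10 LD50 on day 7, 265, 250 and 241 FPKM at 1/5 LD50 on day 14, and 439, 227 and 323 FPKM in saline. ND3 was the mRNA that differed least in replicate 3 of 1/10 LD50 on day 7, at 1.65 times the saline mean. ND6 stood at 606, 1275 and 2407 FPKM at 1/10 LD50 on day 7, 512, 542 and 655 FPKM at 1/5 LD50 on day 14, and 477, 447 and 632 FPKM in saline.

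Replicate 2 of 1/10 LD50 on day 7 had 2.94 times and replicate 3 had 3.90 times the saline mean in the median of the 13 mRNAs, against 1.43 times in replicate 1. The tRNAs were at 2.29, 2.23 and 1.42 times in replicates 2, 3 and 1, again as the median. All 22 tRNAs of replicate 2 and 20 of replicate 3 were above every saline library. On the log2 scale the group's difference from saline had a median of 1.39 for the mRNAs (0.85 to 1.57) and 0.99 for the tRNAs (0.19 to 1.93), against -0.09 for all 14701 genes tested. In 11 of 13 mRNAs and 13 of 22 tRNAs all 3 libraries were above all saline libraries, where 7.71% of all genes were. This contrast chose the genes, so nothing is read from that count. The tRNAs with the largest differences were TrnR (1.93), TrnL1 (1.88), TrnD (1.77) and TrnK (1.68), and those with the smallest were TrnC (0.19) and TrnN (0.24).

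The make-up of the 13 mRNAs also differed in the 2 libraries. Complex IV mRNAs were 37.3% and 33.6% of the 13-mRNA FPKM in replicates 2 and 3 of 1/10 LD50 on day 7, against 41.6%, 43.6% and 42.8% in saline. The complex I mRNAs made up 33.3% and 37.3% there, against 32.3%, 30.4% and 31.9% in saline. In replicate 3 COX1 was at its lowest share of the 39 libraries (18.8%), as were COX3 (6.22%) and ND3 (0.659%), while ATP8 was at its highest (8.84%). Nuclear-encoded subunits of complexes I, III, IV and V had a median log2 difference from saline of -0.18 over the 68 measured above the filter at 1/10 LD50 on day 7. The median of all genes tested was -0.09 there. Summed markers of meningeal fibroblasts were at 31.7, 25.3 and 31.5 FPKM in that group and 44.3, 38.3 and 39.9 FPKM in saline, and those of erythroid cells at 705, 497 and 333 FPKM and at 926, 795 and 846 FPKM. Their part in the mitochondrial values was not tested.

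**Figure D3:**
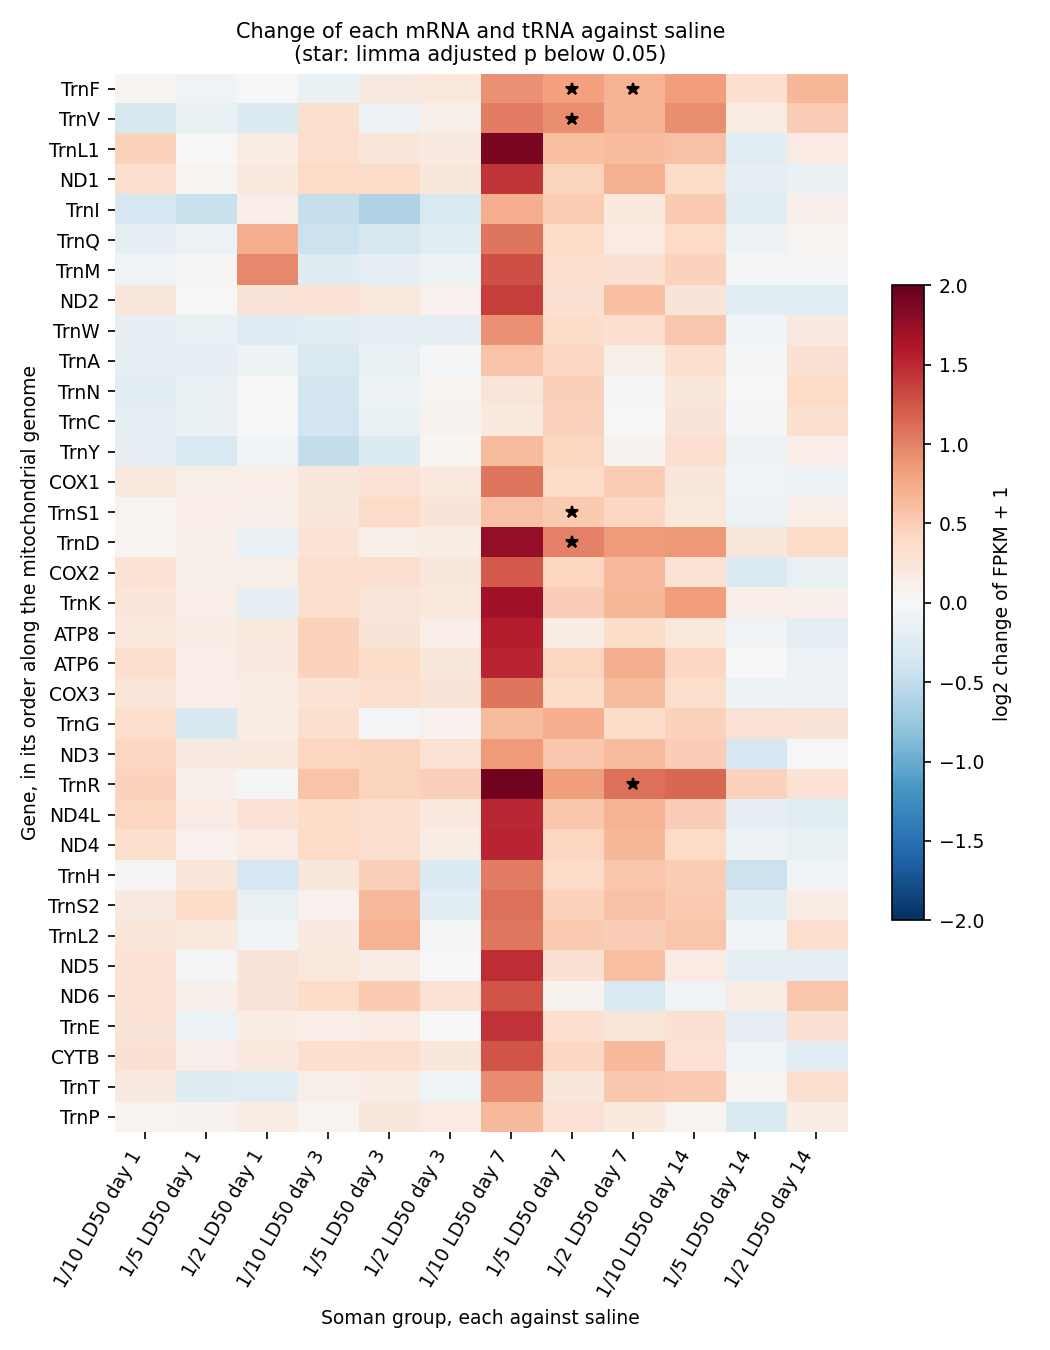
Log2 change of FPKM + 1 (colour, red higher in soman) of the 35 genes in genome order (rows) for each of 12 soman groups against saline (columns), with a star where the limma adjusted p is below 0.05. The 1/10 LD50 day 7 column, which was not tested, holds the largest differences, and the 6 stars are all on tRNAs at 1/5 and 1/2 LD50 on day 7.

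In the other 11 soman groups the 13 mRNAs did not pass the test against saline in any comparison (limma, Benjamini-Hochberg adjusted p over 14701 genes, threshold 0.05). On day 1 none of the 35 genes passed at any dose, where 0.347%, 0.0136% and 0.116% of all genes did in order of rising dose. Median log2 changes of the mRNAs on day 1 were 0.30, 0.12 and 0.19, with 0 of 13 below 0.05 before adjustment at each dose, where 10.7%, 5.73% and 7.31% of all genes were. On day 3, where 6.97%, 8.60% and 8.44% of all genes passed, 0 of the 35 did. The mRNA medians there were 0.37, 0.34 and 0.22, and 0, 1 and 0 of 13 were below 0.05 before adjustment. Before adjustment, 1, 4 and 0 of the 22 tRNAs were below 0.05 on day 3, where 22.5%, 24.9% and 24.9% of all genes were. At 1/5 LD50 the lowest adjusted p on day 3 was 0.0875, for TrnS1. There, 1 tRNA passed without saline replicate 2 or without replicate 1 of the dose (TrnI, lower), and 1 without replicate 3 of the dose (TrnS1, higher).

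Before adjustment, 2 tRNAs were below 0.05 at 1/2 LD50 on day 1, and they are neighbours on the genome. TrnM was at 139, 658 and 357 FPKM in that group and at 236, 118 and 159 FPKM in saline (log2 change 0.96 ± 0.35 (SE), limma adjusted p = 0.437). TrnQ, which lies beside it on the minus strand, was at 97.2, 344 and 218 FPKM against 162, 81.2 and 119 FPKM (0.73 ± 0.31, limma adjusted p = 0.584). Replicate 2 was highest for both and replicate 1 was inside the saline range. Replicate 3, above all saline libraries in both genes, is one of the 7 libraries named above, and its values lay between those of replicates 1 and 2. The genes on either side of the pair were also above all saline libraries in replicate 2. TrnI was at 105 FPKM there (saline 96.6, 44.2 and 66.9) and ND2 at 2231 FPKM (saline 1920, 936 and 1191). In replicates 1 and 3 both TrnI and ND2 were inside the saline range. Without the 7 libraries the changes were 0.85 ± 0.47 for TrnM and 0.67 ± 0.43 for TrnQ (SE), and neither was below 0.05 before adjustment (limma adjusted p = 0.9996 for both).

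On day 7 the mRNAs of 1/2 LD50 came nearest to the threshold. Their median log2 change was 0.64, with 12 of 13 positive and 11 of 13 below 0.05 before adjustment, where 24.2% of all genes were. After adjustment 0 passed, where 8.39% of all genes did. ND3 had the lowest adjusted p among them, with 480, 559 and 457 FPKM at 1/2 LD50 and 439, 227 and 323 FPKM in saline (0.64 ± 0.22, adjusted p = 0.0597). All 3 soman libraries were above all saline libraries for ND3, as for ATP6, COX3, ND1, COX2 and COX1, where 13.5% of all genes were. ND6 had the opposite sign, at 375, 450 and 426 FPKM against 477, 447 and 632 FPKM in saline (-0.30 ± 0.38, adjusted p = 0.669). Without the 2 libraries of high mitochondrial share, 4 mRNAs passed at 1/2 LD50 (ND1, ND3, COX2 and ATP6), and without saline replicate 1 the 4 were ND1, ND3, COX2 and COX3. The share of all genes past the threshold in these fits is not given here, so the counts of 4 cannot be set against it. At 1/5 LD50 on day 7, 13 of 13 mRNAs were positive with a median of 0.42 (12 of 13 when scaled to the sum outside the mitochondrial genome). None passed, where 15.4% of all genes did, and 1 was below 0.05 before adjustment, where 29.8% of all genes were (ND3, 0.54 ± 0.22, adjusted p = 0.0875).

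Among the tRNAs, 4 rose at 1/5 LD50 on day 7 and 2 at 1/2 LD50, where 6.49% and 1.71% of all genes rose. TrnS1 was at 964, 1066 and 1174 FPKM at 1/5 LD50, against 852, 609 and 782 FPKM in saline (log2 change 0.52 ± 0.14 (SE), limma adjusted p = 0.0112). TrnD, the aspartate tRNA next to TrnS1 on the other strand, had 16.7, 13.9 and 19.4 FPKM, against 10.6, 5.26 and 8.04 FPKM in saline (1.01 ± 0.28, adjusted p = 0.0134). TrnF had 9.61, 7.21 and 9.49 FPKM, against 5.44, 4.35 and 3.76 FPKM in saline (0.83 ± 0.22, adjusted p = 0.0119). For these 3 the groups did not overlap. In all, 6 of 22 tRNAs and 0 of 13 mRNAs had every 1/5 LD50 library above every saline library, as did 21.7% of all genes. TrnV had 6.06, 4.87 and 11.5 FPKM, against 5.71, 1.92 and 2.77 FPKM in saline, so the groups overlapped (0.94 ± 0.32, adjusted p = 0.0458). TrnV passed in 1 of 8 other settings (adjusted p 0.0380 to 0.196) and in 2 of the 6 fits that each leave out 1 library, whereas TrnS1, TrnD and TrnF each passed in 7 of the 8 and in 4 of the 6.

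At 1/2 LD50 on day 7, TrnR, the arginine tRNA, had 12.5, 12.2 and 9.77 FPKM, against 7.01, 3.43 and 4.44 FPKM in saline (1.11 ± 0.31, limma adjusted p = 0.0249). TrnF had 7.46, 10.3 and 6.38 FPKM there (0.70 ± 0.22, adjusted p = 0.0477). Both were above all saline libraries in 3 of 3, as were 4 of 22 tRNAs in all and 13.5% of all genes. TrnR passed in 6 of 8 other settings and in 2 of the 6 fits that each leave out 1 library, and TrnF in 3 of the 8 and 1 of the 6. The counts of 4 and 2 were 0 and 0 without the 7 libraries that lie between others, and leaving out single libraries gave 0 to 9 and 0 to 10. For these fits the share of all genes past the threshold is not given here. At 1/5 LD50 the count was 0 without replicate 3 of the dose, 1 without saline replicate 2, 2 without saline replicate 3 and 9 without saline replicate 1. At 1/2 LD50 it was 0 without replicate 1 or 2 of the dose or saline replicate 2 or 3, and 10 without saline replicate 1. Saline replicate 1 was the saline library of highest mitochondrial share. Meningeal fibroblast markers fell in 5 of 6 at 1/5 LD50 and 4 of 6 at 1/2 LD50. Of all genes, 15.4% and 8.39% passed in either direction, and 6.49% and 1.71% rose. Summed levels of these markers were 17.4 to 25.4 FPKM over the 6 libraries of the 2 doses and 38.3 to 44.3 FPKM in saline. Choroid plexus markers fell in 2 and 3 of 5, and at 1/5 LD50 endothelium markers rose in 2 of 5 and an ependyma marker rose, 1 of 4. No marker was at 0, and their part in the tRNA result was not tested.

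On day 14 no gene of the 35 passed against saline at any dose, where 0.435%, 0.163% and 0.415% of all genes did in order of rising dose. Medians of the mRNAs were 0.29, -0.11 and -0.15, with 1, 0 and 0 of 13 below 0.05 before adjustment. For the tRNAs they were 0.52, -0.04 and 0.22, with 8, 0 and 1 of 22 below 0.05 before adjustment, where 11.3%, 10.4% and 8.93% of all genes were. At 1/10 LD50, TrnF had 8.65, 12.1 and 6.35 FPKM against 5.44, 4.35 and 3.76 FPKM in saline (0.83 ± 0.22, limma adjusted p = 0.0968). At that dose TrnK passed without saline replicate 1 or without the 2 libraries of high mitochondrial share, and TrnR without replicate 3 of the dose.

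Days were then compared among soman groups, so the changes do not use saline values. All 39 libraries, saline included, still enter the spread behind their SE and p. On day 7 against day 1, over 1/5 and 1/2 LD50 with 6 libraries a day, 11 of 22 tRNAs rose and 0 of 13 mRNAs passed, where 23.0% of all genes passed, 11.6% higher and 11.5% lower. TrnF lay between 6.38 and 10.3 FPKM on day 7 (median 8.48) and between 3.69 and 5.49 FPKM on day 1 (median 4.31), a log2 change of 0.80 ± 0.16 (SE, limma adjusted p = 0.000538). TrnD lay between 12.98 and 19.4 FPKM on day 7 (median 15.7) and between 6.18 and 11.1 FPKM on day 1 (median 7.24), a change of 0.95 ± 0.20 (adjusted p = 0.000948). TrnV lay between 4.87 and 11.5 FPKM on day 7 (median 5.70) and between 1.51 and 3.46 FPKM on day 1 (median 3.09), a change of 1.02 ± 0.23 (adjusted p = 0.0017). In each of these 3 genes every library of day 7 was above every library of day 1, as in 4.18% of all genes.

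TrnR, at 8.76 to 12.5 FPKM on day 7 (median 9.73) and 3.28 to 6.94 FPKM on day 1 (median 4.72), also did not overlap (0.94 ± 0.22, limma adjusted p = 0.00285). The same held for TrnT, the threonine tRNA beside CYTB, at 12.1 to 18.4 FPKM on day 7 (median 14.1) and 7.27 to 10.8 FPKM on day 1 (median 9.56; 0.61 ± 0.14, adjusted p = 0.00206). TrnK, the lysine tRNA, was at 7.12 to 10.8 FPKM on day 7 and 4.49 to 6.91 FPKM on day 1 (0.60 ± 0.18, adjusted p = 0.0145). TrnS1, TrnW, TrnY, TrnI and TrnG, for serine, tryptophan, tyrosine, isoleucine and glycine, rose by 0.34 to 0.63 on the log2 scale, and their libraries overlapped between the days. TrnL1 and COX2, which did not pass, were also above all of day 1 in all 6 libraries. By strand, 9 of 14 plus-strand and 2 of 8 minus-strand tRNAs rose. The difference between strands was not tested.

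Without the 7 libraries between others, TrnT, TrnF, TrnV, TrnR and TrnD still passed on day 7 against day 1, and these 5 also passed with each of the 12 libraries left out and under all 8 other settings. The other 6 passed in 4 to 7 of the 8. The model as reported takes its spread from all 13 groups, the 2 libraries of high mitochondrial share included. In a model of the 4 compared groups alone the count was 23, 10 of them mRNAs. Without the 2 libraries it was 16, of which ND1, ND3, COX1 and COX2 were mRNAs. The share of all genes past the threshold under these settings is not given here. As reported, the mRNAs had a median change of 0.36, with 7 of 13 below 0.05 before adjustment, where 35.9% of all genes were (lowest adjusted p = 0.0561, ND3). Markers of meningeal fibroblasts moved with this comparison. All 6 fell, where 11.5% of all genes fell. Their summed level was 17.4 to 25.4 FPKM on day 7 and 33.0 to 45.4 FPKM on day 1. Choroid plexus markers fell in 4 of 5, with sums of 205 to 500 FPKM on day 7 and 227 to 577 FPKM on day 1, and ependyma markers rose in 2 of 4. Without the 7 libraries the meningeal count stayed at 6 and the choroid plexus count was 2. No marker was at 0, and the part of these cells in the tRNA result was not tested.

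On day 14 against day 1 over the 3 doses, 6 of 22 tRNAs rose and 0 of 13 mRNAs passed, where 14.9% of all genes passed, 7.27% higher and 7.67% lower. All 13 mRNAs had a change below 0, with a median of -0.20 and 0 of 13 below 0.05 before adjustment, where 28.2% of all genes were. The tRNAs had a median of 0.29 and 17 of 22 were above 0 (16 of 22 when scaled to the sum outside the mitochondrial genome). TrnF lay between 4.76 and 12.1 FPKM on day 14 (median 7.08, n = 9) and between 3.69 and 5.49 FPKM on day 1 (median 4.34, n = 9), a log2 change of 0.62 ± 0.13 (SE, limma adjusted p = 0.00154). TrnV lay between 2.31 and 9.45 FPKM on day 14 (median 5.41) and between 1.51 and 3.46 FPKM on day 1 (median 2.84), a change of 0.77 ± 0.19 (adjusted p = 0.00488). In both genes 8 of 9 libraries of day 14 were above all 9 of day 1.

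TrnT rose by 0.39 ± 0.11 (limma adjusted p = 0.0188), TrnD by 0.48 ± 0.16 (adjusted p = 0.0410), TrnW by 0.41 ± 0.14 (adjusted p = 0.0492) and TrnY by 0.31 ± 0.11 (adjusted p = 0.0488) on the log2 scale. TrnF and TrnV kept passing with each of the 18 libraries left out and under all 8 other settings. TrnD and TrnY each passed in 3 of the 8 and TrnW in 2. TrnT passed with each library left out but not without the 7 libraries (adjusted p = 0.169). The count was 3 without replicate 1 of any of the 6 groups, without replicate 3 of 1/10 or of 1/5 LD50 on day 1, without replicate 2 of 1/10 or of 1/2 LD50 on day 14, and without replicate 3 of 1/5 LD50 on day 14. In each of these cases the 3 were TrnT, TrnF and TrnV. Erythroid markers fell in 5 of 5, where 7.67% of all genes fell. Their summed levels were 161 to 517 FPKM on day 14 and 387 to 1113 FPKM on day 1. Oligodendrocyte progenitor markers fell in 4 of 4, meningeal fibroblast markers in 4 of 6, and oligodendrocyte and microglia markers each in 3 of 5. None of these markers was at 0, and their part in the tRNA result was not tested.

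**Figure D4:**
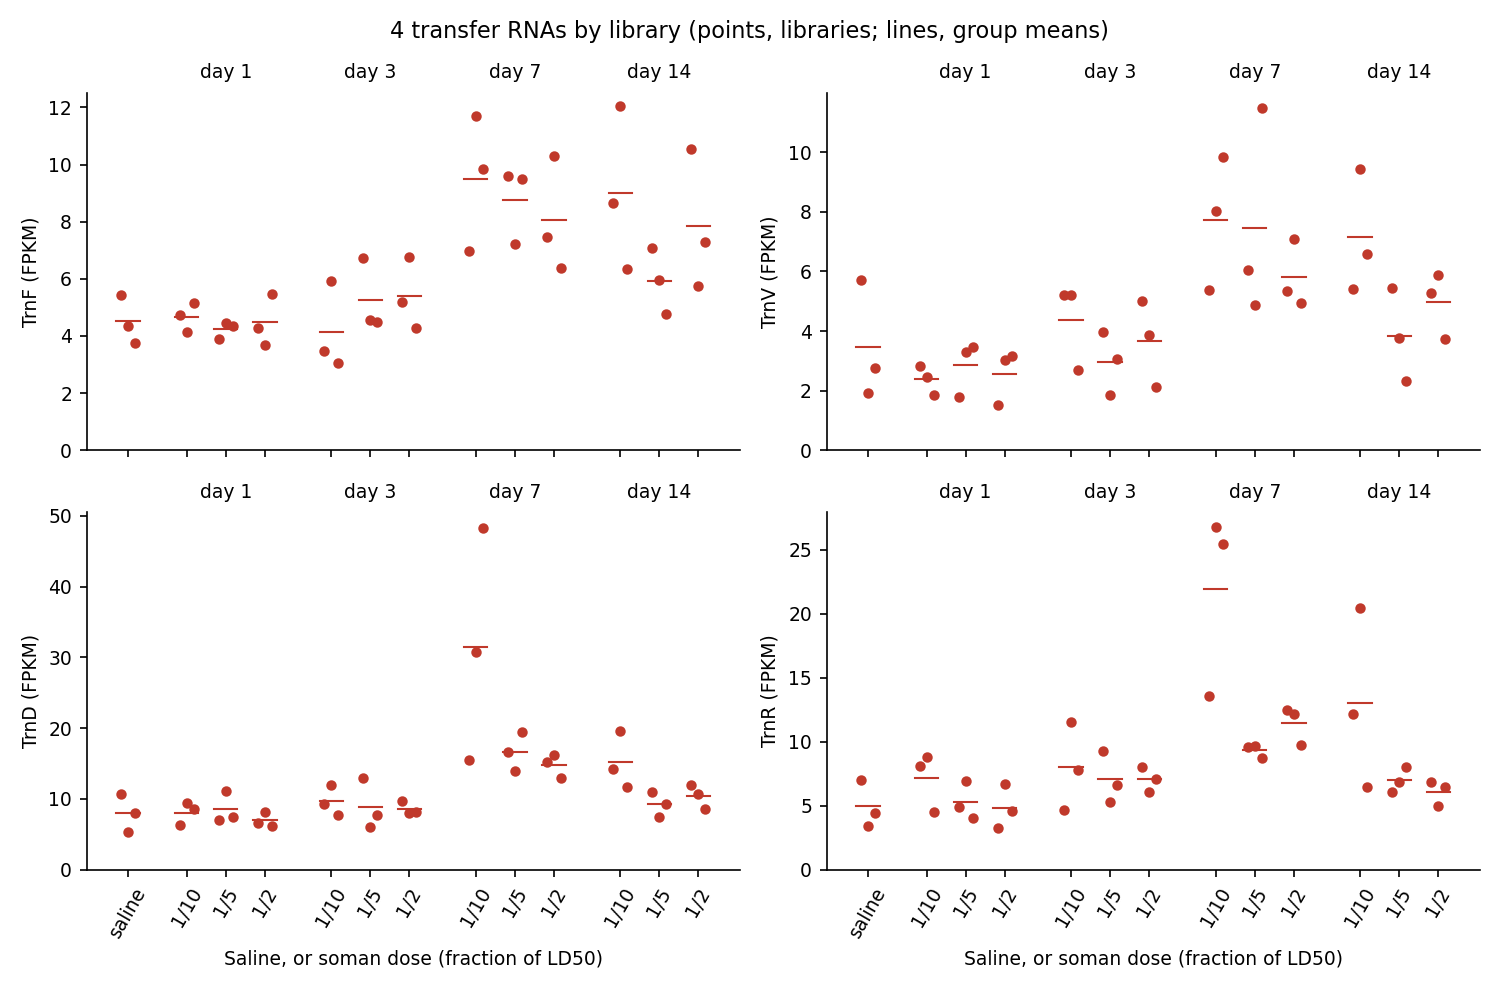
FPKM (y) of TrnF, TrnV, TrnD and TrnR in each library (points) by group (x: saline, then soman dose as a fraction of the LD50 within each day), with lines at group means. At 1/5 and 1/2 LD50 all 6 libraries of day 7 lie above all 6 of day 1 in each of the 4 tRNAs, and the 1/10 LD50 libraries of day 7 reach 48.3 FPKM for TrnD and 26.8 FPKM for TrnR.

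No effect of dose was detected on these genes. At 1/2 against 1/10 LD50 over days 1, 3 and 14, with 9 libraries a dose, 0 of the 35 passed, where 0.00680% of all genes (1 gene) did in limma. Before adjustment 1 mRNA and 4 tRNAs were below 0.05, as were 9.26% of all genes, the lowest adjusted p being 0.400 (TrnK, -0.42 ± 0.15). The mRNAs had a median log2 change of -0.25, with 1 of 13 above 0, against 0.03 for all genes. For the tRNAs the median was -0.11, with 10 of 22 above 0. COX1 differed by -0.14 ± 0.12 (SE) and TrnF by 0.04 ± 0.13 on the log2 scale. A dose effect that differed between days was found in 0 of the 35, where 0.0476% of all genes passed. Before adjustment 2 tRNAs, TrnS2 and TrnH, were below 0.05, as were 7.14% of all genes (limma F-test, adjusted p = 0.668 for both). Both of these counts of 0 stayed at 0 under all other settings and with each library left out.

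ND6, the only mRNA on the minus strand and the subunit of complex I whose gene lies alone there, varied more among libraries than any other mRNA when given as a share of the 13. It ran from 0.983% to 4.02% of their FPKM, a 4.09-fold range, followed by ND3 at 2.52-fold and ATP8 at 2.21-fold. The other 10 stayed within 1.56-fold. Much of the spread lay within groups. At 1/10 LD50 on day 1 the shares were 1.44%, 1.76% and 4.02%, and at 1/5 LD50 on day 3 they were 3.43%, 3.36% and 1.36%, against 1.45%, 2.47% and 2.83% in saline. At 1/2 LD50 they were close together on 2 days, between 0.983% and 1.31% on day 7 and between 3.33% and 3.71% on day 14. ND5, the gene that shares its end with ND6, kept to between 3.08% and 4.80%, and its highest share was in replicate 3 of 1/10 LD50 on day 7. In FPKM, ND6 passed in no comparison, and at 1/2 LD50 on day 14 it differed from saline by 0.56 ± 0.38 (SE, limma adjusted p = 0.732) with all 3 libraries above saline, as 7.24% of all genes were.

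**Figure D5:**
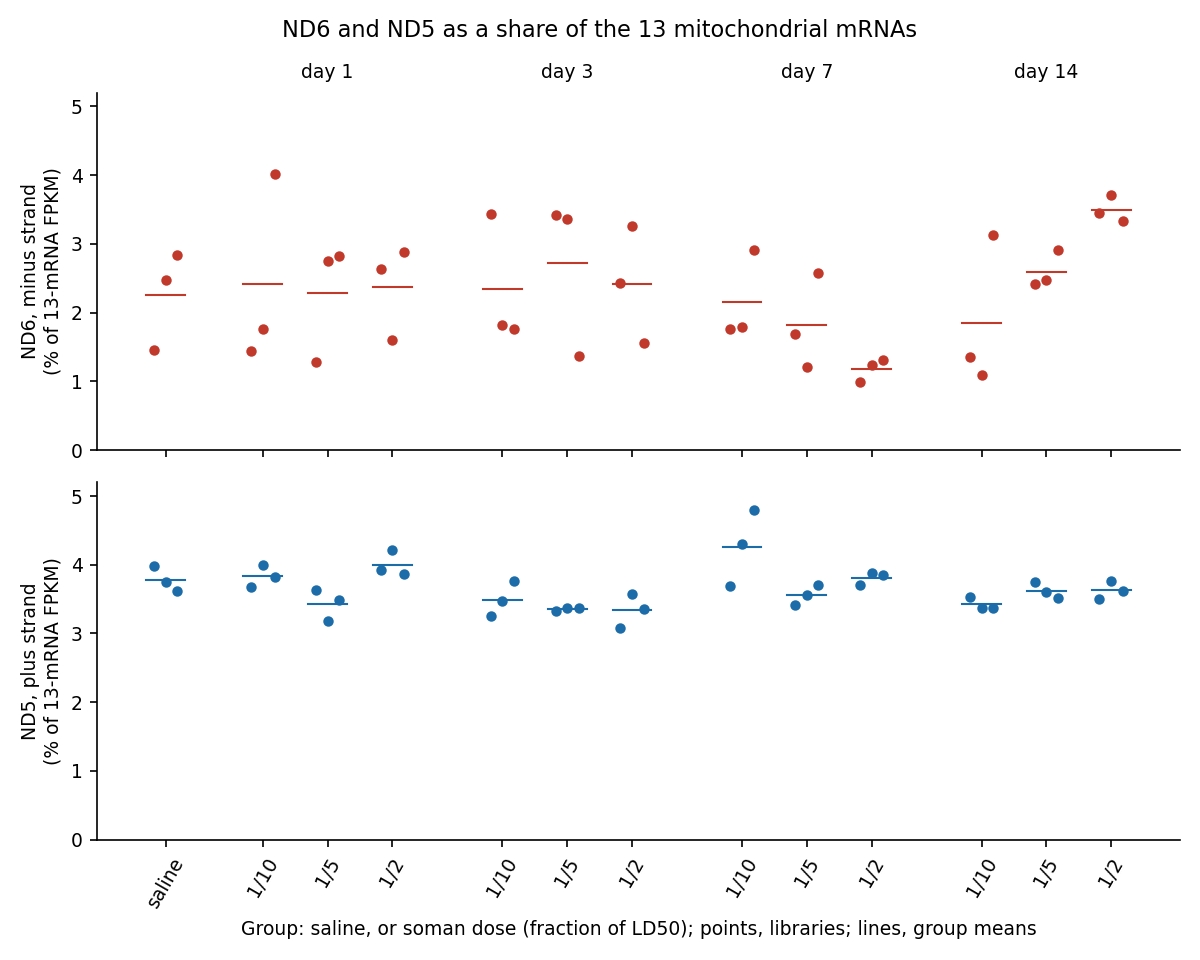
ND6 (upper panel) and ND5 (lower panel) as a percent of the 13-mRNA FPKM (y) in each library (points) by group (x: saline, then soman dose as a fraction of the LD50 within each day), with lines at group means. ND6 spans 0.983% to 4.02% and ND5 3.08% to 4.80%, on the same scale.

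Nuclear genes that act on these RNAs were counted from lists written from general knowledge. Of 17 tested genes of mitochondrial DNA transcription and replication, at most 2 passed in any comparison. They were 1 higher and 1 lower on day 14 against day 1, where 14.9% of all genes passed. At 1/2 LD50 on day 3 they were 2 higher, where 8.44% of all genes passed. The pair on day 3 was Tfb2m, a transcription factor of the mitochondrial promoter (0.28 ± 0.08, limma adjusted p = 0.0233), and Rnaseh1, which degrades RNA paired with DNA (0.30 ± 0.10, adjusted p = 0.0466), and neither count of 2 was kept without the 7 libraries (0 on day 3, 1 for day 14). Polrmt, the mitochondrial RNA polymerase, Tfam, which packages the mitochondrial DNA and starts its transcription, and Lrpprc, which stabilises mitochondrial mRNAs, passed in none. For Lrpprc the nearest was 1/5 LD50 on day 7, with 20.4 ± 0.796 FPKM against 23.4 ± 0.923 FPKM in saline (SD, n = 3 each, -0.19 ± 0.07, adjusted p = 0.0507). At 1/10 LD50 on day 7, which was not tested, Polrmt was at 7.76 ± 0.873 FPKM against 8.52 ± 0.345 FPKM in saline, and Tfam at 5.56 ± 0.502 FPKM against 6.37 ± 0.630 FPKM (SD, n = 3 each). On the log2 scale these differences were -0.13 and -0.17, where the median of all genes tested was -0.09.

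Of 32 genes of mitochondrial RNA processing, stability and decay, 3 rose and 3 fell on day 14 against day 1, the comparison with most calls, where 14.9% of all genes passed. Fastkd5 (0.28 ± 0.05, limma adjusted p = 0.000173) and Fastkd3 (0.25 ± 0.06, adjusted p = 0.00430), of a family that handles mitochondrial mRNAs, rose. Grsf1, of the mitochondrial RNA granules, rose by 0.10 ± 0.03 (adjusted p = 0.0244), and Fastk, which acts on ND6 mRNA, fell by 0.15 ± 0.04 on the log2 scale (adjusted p = 0.0180). Without the 7 libraries the 3 and 3 were 1 and 1. Among 12 translation factors 2 fell at 1/5 LD50 on day 7 and none rose, where 15.4% of all genes passed. The 2 were Gfm1, an elongation factor (-0.24 ± 0.07, adjusted p = 0.0136), and Taco1, which promotes COX1 translation (-0.36 ± 0.12, adjusted p = 0.0364). Neither passed without the 7 libraries (adjusted p = 0.0644 for Gfm1 and 0.103 for Taco1).

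Mitochondrial ribosomal proteins rose in 32 of 57 on day 7 against day 1 and none fell, where 11.6% of all genes rose, with a median log2 change of 0.19 against 0.03 for all genes. Mrps25 (0.33 ± 0.05, limma adjusted p = 4.68e-05), Mrpl13 (0.28 ± 0.05, adjusted p = 0.000393), Mrps6 and Mrps33 led by p value. At 1/5 LD50 on day 7, 18 of the 57 rose against saline, where 6.49% of all genes rose, and at 1/2 LD50 2 did, where 1.71% rose. Without the 7 libraries 9 rose on day 7 against day 1 and 3 at 1/5 LD50, with medians of 0.18 and 0.21. The nuclear-encoded subunits of complexes I, III, IV and V, partners of the 13 mRNAs' products, rose in 27 of 68 at 1/5 LD50 on day 7 with none lower (median log2 change 0.32, against 0.03 for all genes) and in 1 of 68 at 1/2 LD50, where 6.49% and 1.71% of all genes rose. Ndufa6, of complex I, was at 118 ± 4.84 FPKM against 86.2 ± 3.03 FPKM in saline (SD, n = 3 each, 0.44 ± 0.08, adjusted p = 0.000442), and Atp5j, of ATP synthase, at 166 ± 5.01 FPKM against 132 ± 5.69 FPKM (0.33 ± 0.07, adjusted p = 0.00267). Ndufb7 and Ndufa11 of complex I rose as well. The count of 27 was 5 without the 7 libraries (median 0.31) and 51 without the 2 libraries of high mitochondrial share. For the fits without the 7 or the 2 libraries the share of all genes that rose is not given here. The median log2 change of the 13 mitochondrial mRNAs in that comparison was 0.42, with none past the threshold.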

How the data were processed

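Poly(dT)-selected brain RNA was reverse-transcribed and sequenced, per the labels' protocols. HISAT2 is named as aligner and GRCh38, a human build, for these mouse libraries, per the submitters' processing notes. The deposited values are FPKM computed by the authors, 1 table of 47561 genes by 39 libraries. The program that computed them and the strand setting are not given in the sources used here. Low values did not step in whole reads (3.49% of the step ratios took the commonest value), so the depth of each library is unknown.

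Genes at 1 FPKM or above in 3 libraries (14701) were tested as log2(FPKM + 1) with limma 3.58.1 in R 4.3.3 (lmFit, eBayes with trend) in 1 model of 13 groups, with Benjamini-Hochberg adjustment over all of them and a threshold of 0.05 for 15 comparisons. Standard errors are limma's. The labels call the libraries biological replicates but do not say how animals were pooled, and p-values measure the spread between these libraries. The scripts recovered changes put into simulated data. Python 3.11.15 with matplotlib 3.10.9, pandas 2.3.3 and numpy 2.4.6 made tables and figures.

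For each library, genes with a mean of at least 5 FPKM that differed over 2-fold between the other 2 of its group were taken, and the share of them at 0.3 to 0.7 along the interval between these 2 was computed. The 7 libraries had a higher share than each of the 36 libraries outside their group. The 2 high libraries are those of highest mitochondrial share. As alternatives, the pseudocount was set to 0.1, the filter dropped, and the scaling changed to median ratios or to the FPKM sum outside the mitochondrial genome, and fits were made with the groups compared alone, with a replicate block, and without the 2, the 7 or each library in turn. List counts without the 2 and the 7, and values of TrnM, TrnQ, Gfm1 and Taco1 without the 7, were added after seeing the data.

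The 35 genes, the lists, the tests and the alternatives were chosen with earlier results of these data known. The text gives every mRNA by library for the groups of highest and lowest mRNA share and for saline, up to 4 called genes of smallest p in the comparison with most calls of each list, and Polrmt, Tfam and Lrpprc always. Other tRNAs, pathway genes and libraries were named after their values were seen. Sequences were read by gene name from GENCODE M21 transcripts.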

Additional observations from a re-analysis of the deposited data

How the results depend on the processing

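Of the 15 comparisons tested, 9 kept their count of genes past the threshold, all of them 0, under all 8 settings and with each library left out, and no called change turned its sign. At 1/5 LD50 on day 7 the count of 4 was 0 without the 7 libraries between others, and 0 to 9 with single libraries left out. At 1/2 LD50 on day 7 the count of 2 was 0 with no filter and without the 7 libraries, 1 with either scaling and with the groups compared alone, 9 without the 2 libraries of high mitochondrial share, and 0 to 10 with single libraries left out. At 1/10 LD50 on day 14 the count of 0 was 1 without the 2 libraries, and it was 0 to 1 with single libraries left out there and at 1/5 LD50 on day 3. On day 14 against day 1 the count of 6 was 3 with no filter and with either scaling, 2 without the 7 libraries, and 3 to 7 with single libraries left out. On day 7 against day 1 the count of 11 was 7 when scaled to the sum outside the mitochondrial genome, 5 without the 7 libraries, 23 with the groups compared alone, and 8 to 13 with single libraries left out. Fewer libraries enter the fits that leave some out, and otherwise the cause was not tested. The share of all genes past the threshold in each of these other fits is not given here. Replicate numbers did not pair the libraries: of 36 pairs of same-numbered soman and saline libraries, 1 had deviations correlated above 0.1 (range -0.160 to 0.105). With the replicate number as a block the count on day 14 against day 1 was 3 and that on day 7 against day 1 was 12. Scaling moved the median of all genes by less than 0.1 on the log2 scale in every comparison. Depth is unknown, so no limit from counting can be given for the low tRNAs.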

Other observations

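The 2 ribosomal RNAs of the mitochondrial genome, which form the core of its ribosome and are not among the 35 genes, had medians of 987 FPKM (mt-Rnr1) and 945 FPKM (mt-Rnr2) over the 39 libraries. They stood less far above saline than the mRNAs in the libraries of highest mitochondrial share. Replicates 2 and 3 of 1/10 LD50 on day 7 had 1.86 and 2.45 times the saline mean in their median, against 2.94 and 3.90 times in the mRNAs. Together the rRNAs had 4.44% and 5.05% of the FPKM of the 13 mRNAs in these libraries, against 5.77%, 7.81% and 7.96% in saline. The lowest values outside that group were similar, 4.86% in replicate 1 of 1/10 LD50 on day 1 and 4.98% in replicate 3 of 1/5 LD50 on day 3.

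The 22 tRNAs together had between 6.51% and 12.1% of the FPKM of the 13 mRNAs. As the tRNAs are shorter than usual fragments, this is a ratio of FPKM and not of molecules. By group this was 7.43% ± 1.07 at 1/10 LD50 on day 7, 11.7% ± 0.420 at 1/2 LD50 on day 14 and 9.52% ± 1.13 in saline (SD, n = 3 each).

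The rRNAs were also higher on day 7 than on day 1 at 1/5 and 1/2 LD50. Every library of day 7 was above all 6 of day 1, as in 4.18% of all genes. At the large rRNA, mt-Rnr2, the median was 1183 FPKM on day 7 (1011 to 1381) and 831 FPKM on day 1 (746 to 908). At the small rRNA, mt-Rnr1, it was 1398 FPKM on day 7 (1079 to 1487) and 963 FPKM on day 1 (774 to 1070).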
